A study of Arabidopsis thaliana with 16 samples.

Results

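Plant mitochondria hold a second route for electrons beside the cytochrome route of complexes I, III and IV. Alternative NAD(P)H dehydrogenases (NDA on the matrix side of the inner membrane, NDB on its outer side) pass electrons to ubiquinone, and alternative oxidases (AOX) pass them from ubiquinol to oxygen, and neither step pumps protons. Transcripts of AOX1A, NDB2 and UPOX rise when the cytochrome route is blocked or reactive oxygen species build up, through a signal from mitochondria to the nucleus called retrograde signalling, so they are widely read as markers of mitochondrial stress. The genes described here are the 5 alternative oxidases of Arabidopsis thaliana (AOX1A, AOX1B, AOX1C, AOX1D and AOX2), 3 of the alternative dehydrogenases (NDA1, NDA2 and NDB2) and UPOX, which encodes a small mitochondrial protein induced by oxidative stress. They were chosen by locus, and 9 of 9 had a probe set of their own among the 22687 tested.

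The arrays measured RNA of Arabidopsis Col-0 callus, undifferentiated cells derived from hypocotyls, as wild type (WT) or as a knockout of the heat shock factor gene HsfA2 (HSFA2 KO). Cells grew in darkness on plates in sealed BRIC canisters on the International Space Station (F) or in a ground chamber set to the station's conditions (G). They were fixed in RNAlater on day 10 in orbit, at a labelled age of 14 days, and the ground plates ran 48 h later. The 4 groups are written GWt and FWt (5 arrays of 4 plates each, since plate A1 was hybridized 2 times and its arrays were averaged) and GHsf and FHsf (3 arrays each), so that n is 4 for a WT group and 3 for an HSFA2 KO group.

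The design limits each comparison in stated ways. Each genotype was 1 culture line, so that line and genotype cannot be told apart, and each environment was flown or run 1 time. WT plates sat in canisters BRIC A and BRIC B and all HSFA2 KO plates in BRIC B. GHsf arrays B3 and B3-2 carry 1 plate number in their titles and may be repeats of 1 plate. They were kept as separate samples, unlike the arrays of plate A1, so n = 3 in GHsf may overstate the number of plates. Titles of 2 of the 3 GHsf arrays end in Rep2, against 1 of the arrays in each other group. Rep2 is read here as a second array run, which the titles do not state. P-values therefore measure the spread between these samples, part of which may be technical. The growth text of the labels names a different knockout, while titles and genotype tags give HSFA2 KO; the HsfA2 probe set read 3187 to 6291 in GWt and 5362 to 9179.8 in FWt, against 7.38 to 76.5 in GHsf and 34.5 to 170 in FHsf.

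Values are MAS5 signals, linear array intensities that the authors scaled to 1 common trimmed mean per array. A probe set was said to pass where the unadjusted p of limma lay under 0.01 and its fold change, up or down, exceeded 1 on the log2 scale, and the Benjamini-Hochberg adjusted p over all 22687 probe sets is given beside it. The 9 genes fell into 2 kinds by signal. AOX1A, NDA2 and UPOX lay above the array median on 16 of 16 arrays and NDB2 on 15. AOX1B, AOX1C, AOX1D, AOX2 and NDA1 lay under it on 12, 16, 11, 14 and 15 arrays, and AOX1C lay under the lower quartile of its array (16.03 to 33.2) on 13 and NDA1 on 10.

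That split set the precision. The 3 pairs of repeat or possibly repeat arrays differed in the 4 brighter genes by 0.04 to 1.295 on the log2 scale, with a median of 0.45 over 12 values. In the 5 dimmer genes they differed by 0.12 to 3.71, with a median of 1.12 over 15 values. The AOX1C signal of GWt plate A1, for example, was 6.65 on the first array and 86.8 on the repeat. The residual SD on the log2 scale was 0.26 for NDA2, 0.33 for AOX1A, 0.48 for UPOX and 0.50 for NDB2, and 1.07 to 1.69 for the other genes.

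**Figure D1:**
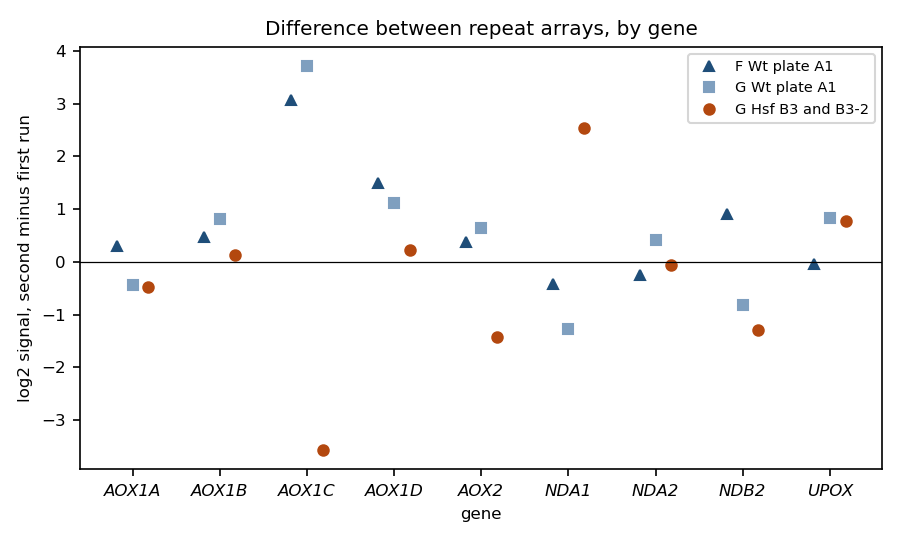
Log2 signal of the second-run array minus that of the first-run array (y axis) for each gene (x axis), for plate A1 of FWt and of GWt and for GHsf arrays B3 and B3-2. AOX1A and NDA2 stayed within 0.47 of 0 in these pairs, and AOX1C moved by 3.07, 3.71 and −3.56.

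AOX1A, the main stress-induced oxidase gene of leaves and cell cultures, was higher in HSFA2 KO than in WT cells, and the difference passed the thresholds on the ground. Its probe set is assigned to At3g22370 on the plus strand of chromosome 3, from base 7906889 to 7908416 in the authors' annotation, whose genome build is not given in the sources used here. In GWt the signal was 6595 for plate A1, 4837 for A2, 8571 for B1 and 6101 for B2. In GHsf it was 18669 for array B3, 13495 for B3-2 and 11414 for B5-2. Each GHsf array thus lay above each GWt plate, with means of 14526 ± 3736 (SD, n = 3) and 6526 ± 1551 (SD, n = 4). In these bulk samples more cells of a type and more RNA per cell cannot be told apart.

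AOX1A in FWt read 7723, 7667, 6675 and 5418 for plates A1, A2, B1 and B2. In FHsf it read 10045 for array B3-2, 9092 for B4 and 15338.5 for B5. The FHsf arrays again lay above all FWt plates, with means of 11492 ± 3365 (SD, n = 3) and 6871 ± 1081 (SD, n = 4). The 6 HSFA2 KO arrays of both environments lay above the 8 WT plates of both, a separation shown by 0.851% of all probe sets and by no other of the 9 genes.

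In GHsf : GWt the log2 fold change of AOX1A was 1.15 (SE 0.29), a 2.23-fold difference, with an unadjusted limma p of 0.00203 and an adjusted p of 0.201. In FHsf : FWt it was 0.72 (SE 0.29), or 1.64-fold, with an unadjusted limma p of 0.0306 and an adjusted p of 0.582, which did not pass. The exact two-sided permutation p was 0.0571 in both, the smallest that 3 against 4 allows. On the ground it counted GHsf arrays B3 and B3-2, which may be 1 plate, as separate samples. With these arrays averaged the ground log2 fold change was 1.07 (SE 0.33) and passed. With array B3 of GHsf left out the ground value was 0.96 and no longer passed, and against the WT plates of BRIC B alone it was 0.98 and did not pass either.

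No spaceflight difference of AOX1A passed in either genotype. The log2 fold change was 0.09 (SE 0.27) in FWt : GWt, with a 95% interval from −0.50 to 0.68, and −0.35 (SE 0.31) in FHsf : GHsf, with an interval from −1.03 to 0.34. By group mean the order was GWt, FWt, FHsf, GHsf, and the plates or arrays of the first pair overlapped, as did those of the last pair. The genotypes' spaceflight differences did not differ past the thresholds, at an interaction of −0.44 (SE 0.41) on the log2 scale with an adjusted limma p of 0.999.

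UPOX was the other gene to pass, also in GHsf : GWt. Its probe set is assigned to At2g21640, on the plus strand of chromosome 2 from 9254984 to 9255453. In GWt the signal was 1827 for A1, 1394 for A2, 1029.8 for B1 and 2552 for B2, and in GHsf 3149, 5389 and 3627 for arrays B3, B3-2 and B5-2. All 3 GHsf arrays lay above the 4 GWt plates.

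UPOX in FWt read 2684, 3686, 4929 and 1919.7 for plates A1, A2, B1 and B2. In FHsf it read 5502, 6144 and 5616 for arrays B3-2, B4 and B5. The FHsf arrays were the highest of the series and were close to each other, while the FWt plates ranged from within the GWt values to near the FHsf values. The group means were 1701 ± 655 in GWt, 3305 ± 1302 in FWt (SD, n = 4), 4055 ± 1179.6 in GHsf and 5754 ± 343 in FHsf (SD, n = 3).

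The log2 fold change of UPOX in GHsf : GWt was 1.295 (SE 0.38), or 2.45-fold, with an unadjusted limma p of 0.00551 and an adjusted p of 0.271. In FHsf : FWt it was 0.89 (SE 0.38), or 1.85-fold, with an unadjusted limma p of 0.0392 and an adjusted p of 0.614, which did not pass, although the groups did not overlap. The ground call ended in 4 of the 7 fits that left out 1 GWt plate or GHsf array (A2, B1, B3-2 or B5-2), where the log2 value was 1.07 to 1.36, and against the WT plates of BRIC B alone, where it was 1.28. It also ended, at 1.26 (SE 0.42), when GHsf arrays B3 and B3-2, possible repeats of 1 plate, were averaged.

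UPOX also had the smallest p of the 9 genes for spaceflight in WT cells. In FWt : GWt its log2 fold change was 0.95 (SE 0.35), or 1.93-fold, with an unadjusted limma p of 0.0200 and an adjusted p of 1.000, so it did not pass, and 3 of the 4 FWt plates lay above all GWt plates. The exact two-sided permutation p was 0.0571, where 4 against 4 allows 0.0286. Without FWt plate B2 the value was 1.18 and without GWt plate B2 it was 1.17, and both passed. In FHsf : GHsf all 3 flown arrays lay above the 3 ground arrays, at a log2 fold change of 0.54 (SE 0.41) with an adjusted limma p of 0.844.

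None of the 3 alternative dehydrogenases passed in any comparison. NDA2, a matrix-facing enzyme, is encoded by At2g29990 (minus strand of chromosome 2, 12793561 to 12795913). Its signal was 684, 500.2, 573 and 376 in GWt plates A1, A2, B1 and B2, and 803, 769.5 and 703 in GHsf arrays B3, B3-2 and B5-2. In FWt it was 708, 752, 496 and 613, and in FHsf 903, 868 and 1044. NDA2 thus separated the genotypes in each environment, with all HSFA2 KO arrays on the high side, and the FHsf arrays also lay above the GHsf arrays.

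The NDA2 differences were smaller than the fold limit. On the log2 scale NDA2 was higher by 0.54 (SE 0.25) in GHsf : GWt, with an unadjusted limma p of 0.0545, and 0.56 (SE 0.25) in FHsf : FWt, with an unadjusted limma p of 0.0470 (adjusted p 0.480 and 0.625). For spaceflight it was 0.28 (SE 0.23) in WT and 0.31 (SE 0.27) in HSFA2 KO cells, and the interaction was 0.02 (SE 0.36). The upper end of the 95% interval was 1.09 in GHsf : GWt and 1.11 in FHsf : FWt.

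NDB2, an outer-side NADH dehydrogenase known to be induced together with AOX1A under stress, is encoded by At4g05020 (plus strand of chromosome 4, 2572751 to 2576222). It read 233, 194, 250.2 and 159 in GWt and 340.0, 139 and 166 in GHsf, which overlapped. It read 262, 217, 149.5 and 101 in FWt and 251, 379 and 309 in FHsf, where 1 FWt plate (A1, 262) lay above the lowest FHsf array. Its log2 fold change was −0.05 (SE 0.39) in GHsf : GWt and 0.85 (SE 0.39) in FHsf : FWt, with unadjusted limma p-values of 0.897 and 0.0517.

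NDB2 had the largest interaction estimate in the positive direction among the 9 genes, 0.90 (SE 0.56) on the log2 scale, from −0.27 (SE 0.36) in FWt : GWt and 0.63 (SE 0.42) in FHsf : GHsf. Its unadjusted limma p was 0.131 and its adjusted p 0.999, so a difference between genotypes in the response to spaceflight was not shown. The 2 arrays of plate A1 differed in NDB2 by 0.91 in FWt and by 0.81 in GWt on the log2 scale, as much as the interaction.

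NDA1, the other matrix-facing enzyme, was dim in these cells (At1g07180, plus strand of chromosome 1, 2204413 to 2206773). Its transcript follows light in leaves, but all groups here grew in darkness, so an effect of light on NDA1 was not tested. Its signal ran from 4.82 to 18.6 in GWt, 3.19 to 68.2 in FWt, 6.78 to 39.3 in GHsf and 13.2 to 108 in FHsf, and all groups overlapped. Between genotypes its log2 fold change was 1.36 (SE 1.06) in GHsf : GWt and 1.44 (SE 1.06) in FHsf : FWt, with unadjusted limma p-values of 0.224 and 0.199.

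Among the remaining oxidases AOX1D stood out by its pattern over arrays. AOX1D (At1g32350, minus strand of chromosome 1, 11667236 to 11668569) is known to rise in plants that lack AOX1A. It read 24.7, 22.5, 28.2 and 25.02 in GWt plates A1, A2, B1 and B2, and 148, 174 and 22.1 in GHsf arrays B3, B3-2 and B5-2. The 2 GHsf arrays that share a plate number were high, and the array B5-2 lay under all GWt plates. The signals of the GWt plates and of B5-2 lay within the range of the arrays' lower quartiles (16.03 to 33.2). The folds of AOX1D against GWt are thus taken from signals near that level.

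In flight AOX1D read 24 and 48.1 in FWt plates A1 and A2 and 127 and 85.2 in B1 and B2, so that both plates of BRIC B lay above both of BRIC A. In FWt AOX1A, AOX1C, NDA2 and NDB2 split by canister the other way, with both plates of BRIC A higher. The share of all probe sets with such a split is not given here. In FHsf it read 151, 159 and 38.1 for arrays B3-2, B4 and B5. The log2 fold change was 1.73 (SE 0.78) in GHsf : GWt, with an unadjusted limma p of 0.0474 and an adjusted p of 0.458. Without GHsf array B5-2 it was 2.68 and passed, with arrays B3 and B3-2 averaged it was 1.25, and without both of these arrays it was −0.18, so that the AOX1D difference on the ground rests on them. In FWt : GWt it was 1.25 (SE 0.72), and over the WT plates of BRIC B alone 1.97.

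AOX1B lies next to AOX1A in the genome: its target region (At3g22360, plus strand of chromosome 3, 7904155 to 7905384) ends 1504 bases before that of AOX1A. Its signal was 27.5, 17.2, 27.9 and 125 in GWt plates A1, A2, B1 and B2 and 160, 174 and 21.5 in GHsf arrays B3, B3-2 and B5-2. As for AOX1D, arrays B3 and B3-2 were high and B5-2 was not. For AOX1B the log2 fold change was 1.23 (SE 0.96) in GHsf : GWt and 1.24 (SE 0.96) in FHsf : FWt, with adjusted limma p-values of 0.685 and 0.795.

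AOX1C (At3g27620, minus strand of chromosome 3, 10229288 to 10230595) and AOX2 (At5g64210, minus strand of chromosome 5, 25683964 to 25685364), oxidase genes better known from floral organs and seeds, gave no separation of groups. AOX1C ran from 3.53 to 75.5 over the 14 plates and arrays, with 75.5 in GHsf array B3 and 6.40 in B3-2. AOX2 ran from 6.28 to 191, and its log2 fold change was −1.13 (SE 1.21) in GHsf : GWt and −1.02 (SE 1.21) in FHsf : FWt. The 95% intervals of AOX2 spanned −3.77 to 1.51 and −3.66 to 1.62, so that a several-fold difference in either direction could not be resolved at this signal.

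**Figure D2:**
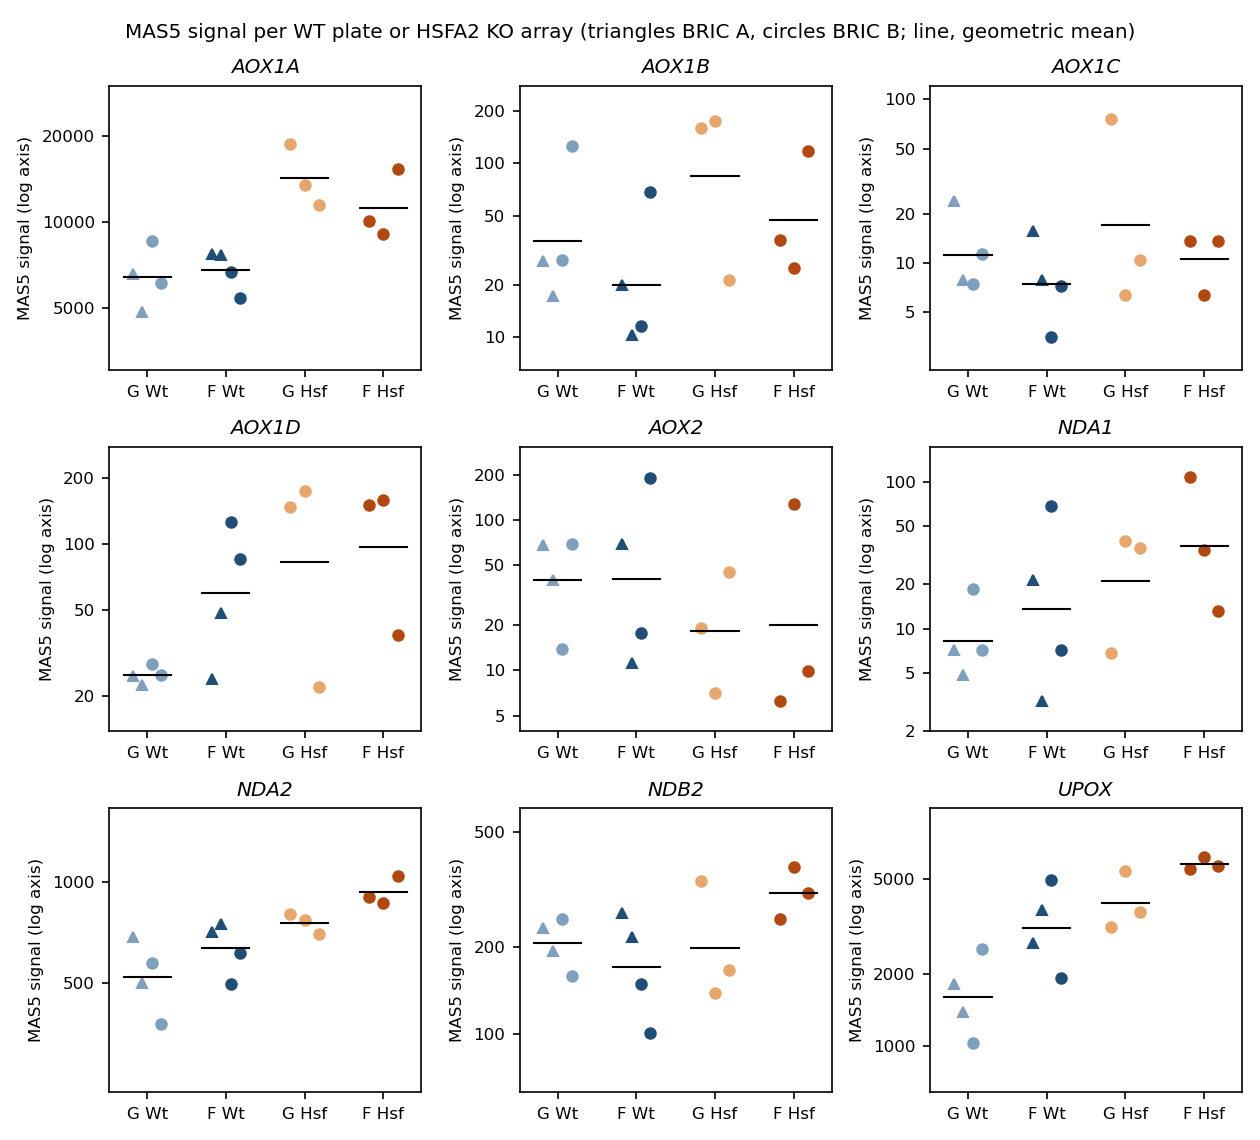
MAS5 signal on a log axis for each gene, by group (ground and flight WT, ground and flight HSFA2 KO), with 1 point per WT plate or HSFA2 KO array; triangles are BRIC A, circles BRIC B, and lines geometric means. AOX1A, NDA2 and UPOX show HSFA2 KO points above the WT points of the same environment, and the dim genes spread widely within groups.

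Over the 9 genes, 2 passed the thresholds in GHsf : GWt, both higher in HSFA2 KO cells, where 1.53% of all probe sets passed as higher and 2.46% in either direction. None passed in FHsf : FWt, FWt : GWt, FHsf : GHsf or the interaction, where 1.75%, 0.807%, 1.51% and 1.02% of all probe sets passed. At an unadjusted limma p under 0.05 there were 3 genes in GHsf : GWt (10.7% of all probe sets), 3 in FHsf : FWt (7.93%), 1 in FWt : GWt (4.39%) and 0 in FHsf : GHsf (6.89%) and in the interaction (4.74%). No gene of the 9 had an adjusted p under 0.05 in any of them, as for all but 0.00441% of probe sets in GHsf : GWt, FHsf : FWt, FHsf : GHsf and the interaction and for 0% in FWt : GWt.

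Groups without overlap were found for AOX1A, NDA2 and UPOX in GHsf : GWt, where 7.95% of all probe sets were higher without overlap, and for the same 3 genes in FHsf : FWt, where 5.73% were. In FHsf : GHsf it was NDA2 and UPOX, against 5.26%, and in FWt : GWt it was none, against 1.33%. The log2 fold change was above 0 for 7 of 9 genes in GHsf : GWt (median 1.15, against 0.12 over all probe sets) and for 8 of 9 in FHsf : FWt (median 0.72, against 0.07). For spaceflight it was above 0 for 6 of 9 in each genotype, with medians of 0.09 in WT and 0.23 in HSFA2 KO cells, against −0.03 and −0.07 over all probe sets.

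The 0.12 median over all probe sets in GHsf : GWt was −0.01 after quantile normalization and −0.15 with arrays centred on their medians. AOX1A was at 1.22 and 0.88 under these scalings and UPOX at 1.35 and 1.02, so that the direction held in both, and neither passed with centred arrays.

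Averaged over both environments, a comparison added after the data had been seen, HSFA2 KO : WT gave log2 fold changes of 0.94 (SE 0.21) for AOX1A, 1.09 (SE 0.27) for UPOX and 0.55 (SE 0.18) for NDA2. The adjusted limma p-values were 0.0716, 0.101 and 0.191, and UPOX alone of the 9 genes passed both thresholds, where 2.58% of all probe sets did. With genotype labels exchanged within each environment, the exact two-sided permutation p was 0.00163 for each of these 3 genes and 0.0686 to 0.371 for the other 6. The value 0.00163 is the smallest possible. For these 3 genes it follows from the lack of overlap in both environments, already seen, so it adds no support. GHsf arrays B3 and B3-2 counted as separate samples in it.

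**Figure D3:**
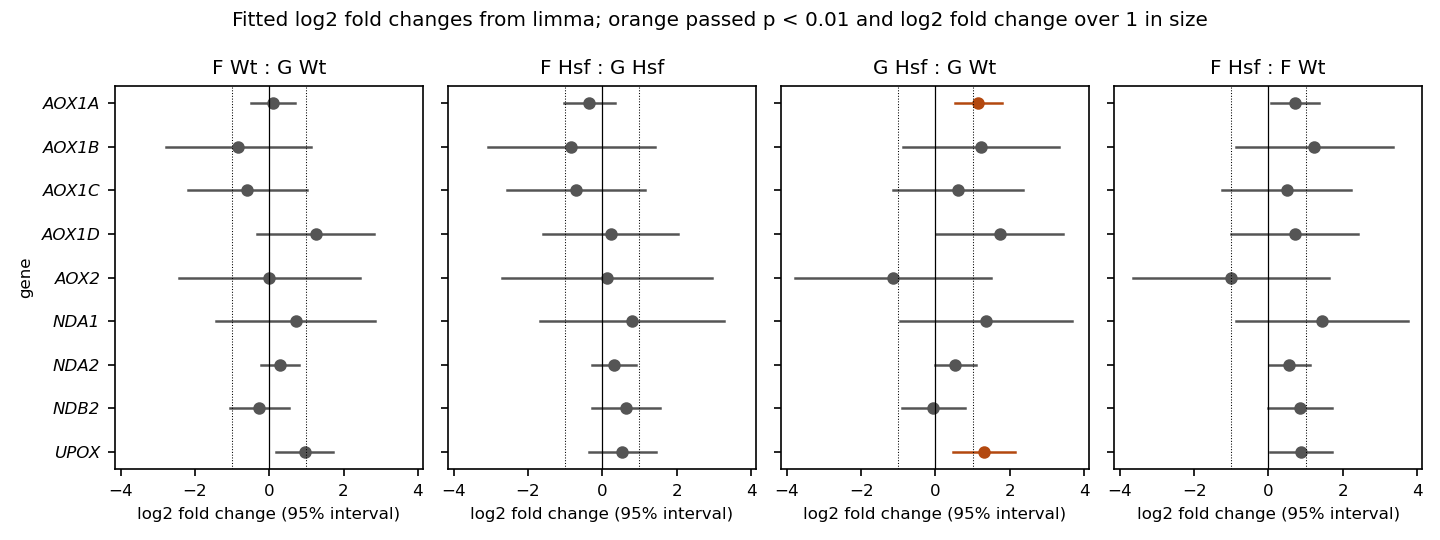
Log2 fold change (x axis, with 95% interval) of each gene (y axis) in the 4 comparisons, from limma; dotted lines mark 1 and −1, and orange marks genes past both thresholds. AOX1A and UPOX are orange in GHsf : GWt, and the intervals of AOX1B, AOX1C, AOX1D, AOX2 and NDA1 are 2 or more log2 units wide on all panels.

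Several other genes of the mitochondrial dysfunction response, nuclear genes induced with AOX1A when mitochondria are disturbed, were also higher in HSFA2 KO cells. Of 12 listed, 4 passed as higher in GHsf : GWt and 4 in FHsf : FWt, where 1.53% and 1.18% of all probe sets passed as higher, and none passed as lower. In each, 11 of 12 lay above 0, with medians of 0.70 and 0.83 against 0.12 and 0.07 over all probe sets. GSTU24, GSTU25 and SOT12 of this list are named by the study from these same arrays, so they are not independent evidence of its direction. The whole list was chosen with earlier results of these data known, so its counts are not independent evidence either. For spaceflight 0 of 12 passed in FWt : GWt and 2 in FHsf : GHsf, where 0.807% and 1.51% of all probe sets passed. The 2 were GSTU25 at 1.49 (SE 0.37) and SOT12, a sulfotransferase, at 1.07 (SE 0.32). SOT12 also read higher in FWt (2242 to 3570) than in GWt (1326 to 1734), without overlap, as 1.33% of all probe sets did. The study reports SOT12 as raised in spaceflight in both genotypes. The genotype counts depended on single choices: without both B3 arrays of GHsf 1 passed in GHsf : GWt, without second-run arrays 0 in GHsf : GWt and 2 in FHsf : FWt, and with arrays centred on their medians 0 and 1. The spaceflight count of 2 in FHsf : GHsf was 0 with WT plates of BRIC B only, without second-run arrays and without GHsf array B5-2, and that of 0 in FWt : GWt was 3 without FWt plate B2.

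AT12CYS-2, a small cysteine-motif protein of mitochondria, passed in both genotype comparisons. Its signal was 208 to 344 in GWt, 350.2 to 533 in FWt, 483 to 652 in GHsf and 775 to 943 in FHsf. The groups of an environment did not overlap, and the log2 fold change was 1.16 (SE 0.26) on the ground and 1.06 (SE 0.26) in flight. DTX3, a multidrug efflux carrier, read 193 to 304 in GWt and 515 to 839 in GHsf, a log2 fold change of 1.51 (SE 0.37), and 1.38 (SE 0.37) in flight.

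GSTU24, a glutathione transferase, differed by 1.39 (SE 0.34) on the ground and 1.52 (SE 0.34) in flight on the log2 scale. The neighbouring family member GSTU25 differed by 0.96 (SE 0.35) on the ground, which did not pass, and by 2.19 (SE 0.35) in flight. CYP81D8, a cytochrome P450, differed by 1.69 (SE 0.37) on the ground and by 0.86 (SE 0.37) in flight, where it did not pass. In the averaged comparison AT12CYS-2, GSTU24, GSTU25 and DTX3 had adjusted limma p-values of 0.0346, 0.0350, 0.0326 and 0.0405. That comparison was added after the data had been seen. The share of all probe sets with an adjusted p under 0.05 in it is not given here. Whether these genes stand out from the other probe sets in it was thus not tested.

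Other genes of this list did not pass. HSP23.5, a mitochondrial small heat shock protein, was at −0.14 (SE 0.24) on the ground and −0.21 (SE 0.24) in flight, and OM66, an ATPase of the outer membrane, at 0.15 (SE 0.34) and 0.79 (SE 0.34).

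Of the regulators of retrograde signalling, 10 of 11 were measured and none passed between genotypes, with medians of 0.63 in GHsf : GWt and 0.24 in FHsf : FWt. ANAC017, the membrane-bound factor that starts the signal, was at 0.34 (SE 0.24) and 0.62 (SE 0.24), and WRKY40, a repressor of AOX1A, at 0.82 (SE 0.33) and 0.84 (SE 0.33). ABI4, another repressor of AOX1A, was the single call of the list, lower in FHsf : GHsf with an adjusted limma p of 0.601. Its FHsf signals, 3.73 to 52.0, reached under the lower quartile of every array, against 42.9 to 122 in GHsf, so no fold is given.

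**Figure D4:**
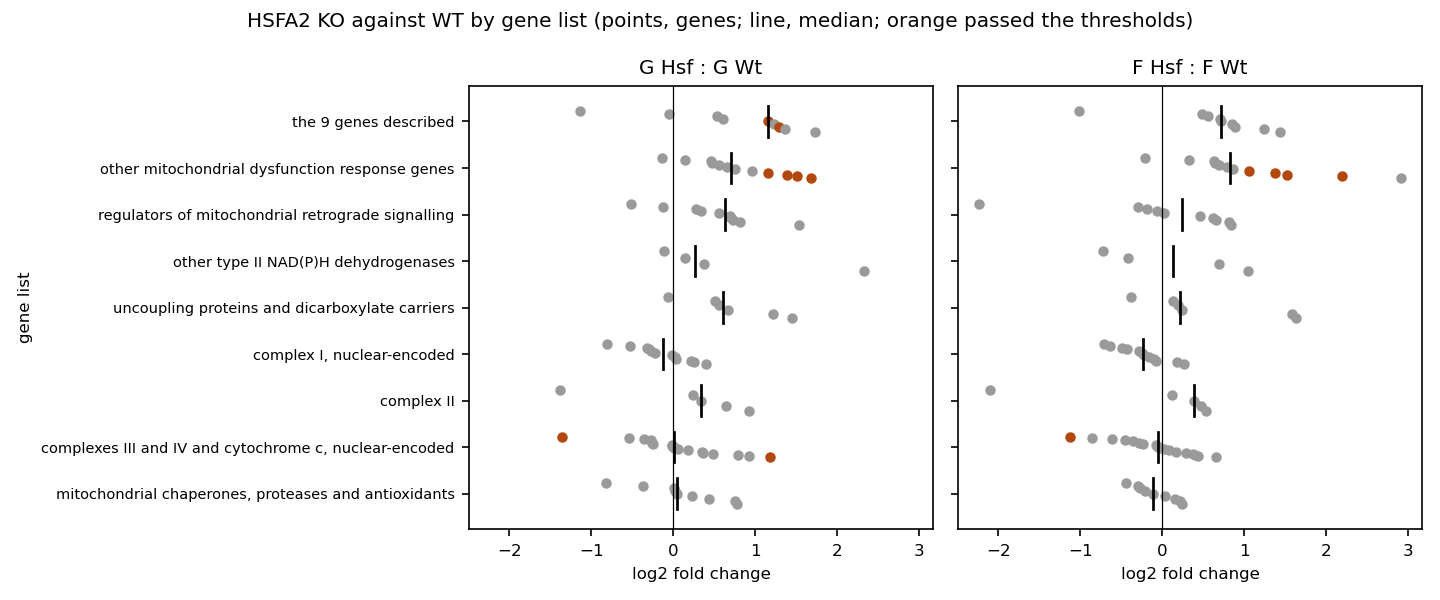
Log2 fold change (x axis) of HSFA2 KO against WT cells on the ground (left) and in flight (right) for the 9 genes and the related gene lists (y axis); points are genes, vertical lines medians, and orange marks genes past both thresholds. The mitochondrial dysfunction response list holds 4 orange points in each panel, all above 0, and complex I has medians of −0.12 and −0.23.

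The rest of the respiratory chain showed few calls. The 4 other alternative dehydrogenases (NDB1, NDB3, NDB4 and NDC1) gave none in any comparison, and NDB3 came closest, at 2.33 (SE 1.24) in GHsf : GWt with an unadjusted limma p of 0.0855. Of complex I, 12 of 13 listed genes were measured and none passed; the carbonic anhydrase-like subunit CAL2 was at −0.80 (SE 0.20) in GHsf : GWt, under the fold limit. Complex II (5 of 7 measured), the uncoupling proteins and dicarboxylate carriers (6 of 6) and the mitochondrial chaperones, proteases and antioxidants (9 of 9) gave no call in the 4 comparisons. Their smallest p-values belonged to SDH2-2, at 0.92 (SE 0.28), and UCP1, at 0.56 (SE 0.28), in GHsf : GWt and to HSP60-3A, at −0.84 (SE 0.31), in FHsf : GHsf.

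Of complexes III and IV with cytochrome c, 19 of 20 genes were measured. QCR7-2, a subunit of complex III, fell by 1.36 (SE 0.30) on the log2 scale in GHsf : GWt and by 1.13 (SE 0.30) in FHsf : FWt. COX17, a copper chaperone of complex IV, was higher in GHsf : GWt at 1.18 (SE 0.27) and at 0.65 (SE 0.27) in flight, where it did not pass. The median of this list was 0.01 on the ground and −0.05 in flight, and that of complex I −0.12 and −0.23.

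The plastid terminal oxidase PTOX, a relative of the alternative oxidases in another organelle, was at −0.19 (SE 0.21) in GHsf : GWt. The best-matching profiles to AOX1A over the 14 plates and arrays, among 11342 probe sets with a mean log2 signal over the median, were those of FKBP15-1 (r = 0.933), CYTC-1 (r = 0.922), VP2 (r = 0.919), PNC2 (r = 0.917) and PIRL9 (r = 0.912). CYTC-1 encodes cytochrome c, the carrier between complexes III and IV, and read 10758 to 14359 in GWt and 19483 to 24027 in GHsf, a log2 fold change of 0.79 (SE 0.23) that did not pass.

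The 3 bright companions of AOX1A lay further down that order. NDA2 ranked 419 (r = 0.702), UPOX 1419 (r = 0.529) and NDB2 1858 (r = 0.472). These values describe 14 points that share genotype and environment differences: after group means were taken out, r with AOX1A was 0.473 for NDA2, −0.106 for UPOX and 0.603 for NDB2. The closest profiles to UPOX were those of At5g22270 (r = 0.915), NUP1, At1g55690, At5g48655 and GH3.4 (r = 0.892), and to NDB2 those of At1g29160 (r = 0.849), At4g19390, WIT1, At5g17530 and At3g33530 (r = 0.801).

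Markers of cell state and RNA controls were read from the same arrays. Of 7 measured callus and root-type regulators, LBD16 was higher in GHsf : GWt (1.48, SE 0.43) and WIND1 fell by 1.86 (SE 0.46) on the log2 scale. Of 3 measured photosynthesis genes, RBCS1A passed as higher in GHsf : GWt, on a probe set shared with related genes. Its signals were 8.89 to 44.7 in GWt and 88.3 to 123 in GHsf. The GWt signals reached under the lower quartile of every array, so no fold is given. PSBO1 passed as lower in FHsf : GHsf, where its FHsf signals of 3.59 to 12.7 lay under the lower quartile of every array, so no fold is given. None of the 4 xylem markers passed, CESA7 being closest at 1.00 (SE 0.60) in GHsf : GWt. The 3′ to 5′ log2 ratio of the GAPDH control was 1.85 to 2.91 in GWt, 2.12 to 2.51 in FWt, 2.1 to 2.65 in GHsf and 2.07 to 2.45 in FHsf. These ratios overlapped between the genotypes in each environment. The part of the marker differences in the AOX1A and UPOX values was not tested.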

How the data were processed

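Total RNA of 16 samples was amplified, biotin-labelled and hybridized to Affymetrix ATH1 arrays. The authors made the intensity values, which are MAS5 signals, with Affymetrix Expression Console; the deposited arrays have a 2% trimmed mean of 500.1 each, and no detection calls were used here. A second table from the authors holds their own log2 fold changes and p-values; neither was used, and only its probe set names and annotation were taken. Of 22810 probe sets, 22687 in that table were tested and 123 left out, 64 of them controls. The number of arrays, not a read depth, limits precision.

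Signals were taken to log2 with no offset, the 2 arrays of plate A1 were averaged, and the resulting 14 units of 4 groups were fitted with lmFit and eBayes of limma 3.58.1 in R 4.3.3, with 10 residual degrees of freedom. The script was tested on simulated data. Exact two-sided permutation tests and figures used Python 3.11, scipy 1.17.1 and matplotlib 3.10.9. The p of the study's criterion was read as unadjusted. Named are all 9 genes, HsfA2, up to 4 genes per list and comparison with the smallest p past the thresholds (otherwise the 1 with the smallest p), and the 5 closest profiles of AOX1A, NDB2 and UPOX; ANAC017, WRKY40, HSP23.5, OM66 and the averaged comparisons were chosen after values were seen. Genes and lists were chosen with earlier results of these data known. Plate positions were not used as pairs in the main fit. Deviations of same-position units correlated at −0.04 to 0.12. Of 13 units, 8 correlated best with a unit of their own position among those of their genotype in the other environment. Alternatives were other scalings, an offset, a signal filter, BRIC B alone, handling of array runs and repeats, an intensity trend, a replicate block and leaving out each replicate. Promoters and protein sequences were not analysed here.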

Additional observations from a re-analysis of the deposited data

How the results depend on the processing

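The count of 2 genes past the thresholds in GHsf : GWt depended on the processing. It was 0 with arrays centred on their medians, with WT plates of BRIC B only, at an adjusted p under 0.05 and, added after the data were seen, without both B3 arrays of GHsf; it was 1 with these arrays averaged and 1 without second-run arrays, there AOX1C, at 3.21 on the log2 scale. Leaving out 1 plate or array gave 1 to 2 in GHsf : GWt, 0 to 1 in FWt : GWt and 0 to 0 in the other comparisons. The AOX1A call ended at 0.88, 0.98, 1.49, 0.96 and 0.84 on the log2 scale (arrays centred, BRIC B, without second-run arrays, without B3, without both B3 arrays), and the UPOX call at 1.02, 1.28, 1.26, 1.07 and 1.17 (arrays centred, BRIC B, B3 arrays averaged, without second-run arrays, without both B3 arrays). Leaving out second-run arrays or both B3 arrays leaves 1 GHsf array, which is then assumed to vary like the other groups. Without second-run arrays 1 gene passed in FHsf : GHsf and 1 in the interaction, in each case AOX1C, at −3.03 and −2.52, which rests on its 75.5 in GHsf array B3. A replicate block by plate position gave 0 genes in FWt : GWt, FHsf : GHsf and the interaction, as without it. Of 1596 counts of the gene lists under alternatives, 129 moved, either to or from 0 or by over 1.5 times. Of 1172 values of the 9 genes under alternatives, 80 changed sign, none of them past the thresholds. Quantile normalization, the offset of 32, the signal filter, 16 separate arrays, the run covariate and the intensity trend left all 5 counts as they were. Signals near the lower quartile of an array limit AOX1B, AOX1C, AOX1D, AOX2 and NDA1.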
